A study of Mus musculus with 18 samples.

Results

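The ethanol response of the astrocyte translatome was measured in the mRNA held by tagged ribosomes of cultured cortical astrocytes. The 12 libraries of the immunoprecipitated (IP) fraction were chosen by their labels, 6 from control dishes and 6 from dishes given ethanol, of 18 libraries in all. The other 6 libraries hold the total RNA (input) of 3 control and 3 ethanol-treated dishes among these 12 and are used here only to set a result beside its input value. Primary astrocytes were grown from the cortices of newborn mice of both sexes that were hemizygous for the Aldh1l1-EGFP/Rpl10a transgene (line JD130Htz on a B6;FVB background, crossed with C57BL/6J). After subculture, all dishes were kept in serum-free medium for 24 h, and then for a further 24 h in medium with 50 mM ethanol or in control medium (0 mM), in sealed chambers. All groups therefore share the transgene, the mixed sex and the lack of serum. How many culture preparations or chambers the dishes came from is not stated in the sources used here. The p-values therefore measure the spread between dishes. Ethanol dishes are numbered 13 to 18 and control dishes 19 to 24, so that ethanol, chamber and the order of dish numbers cannot be told apart. The question was which mRNAs on astrocyte ribosomes were upregulated or downregulated by ethanol (differentially translated, DT).

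Translating ribosome affinity purification (TRAP) isolates ribosomes by way of EGFP fused to their protein RPL10A. The transgene is driven by the promoter of *Aldh1l1*, a folate enzyme gene used as a pan-astrocyte marker, so that the pulldown favours mRNA that is being read in astrocytes. Astrocytes take up glutamate and potassium, supply neurons with lactate and lipids, and secrete matrix and synapse-inducing proteins. Ethanol diffuses into cells freely and is oxidised to acetaldehyde, in brain mainly by catalase and cytochrome P450 enzymes. The values below count how much of an mRNA was on tagged ribosomes relative to all other mRNAs and do not measure protein, and in a bulk sample fewer cells of a type and less RNA per cell cannot be told apart.

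Between 74239854 and 132810705 read pairs per IP library were counted on genes. Levels are given in CPM (counts of read pairs scaled to a common library total, with TMM factors), fold changes as log2 of ethanol over control with their standard error (SE, n = 6 dishes per group), and adjusted p-values are those of edgeR over 24495 genes tested. With a threshold of 0.05, 21.4% of the genes tested were DT, 11.9% up and 9.48% down. Among the 10956 genes that averaged 5 CPM or more, 40.4% were DT, 23.0% upregulated and 17.4% downregulated. The changes were small. The median size of a significant change was 0.15 on the log2 scale, and only 10 genes with at least 5 CPM changed by more than 1.5-fold. In 10.0% of the genes tested the 6 control and the 6 ethanol values did not overlap (5.67% higher with ethanol, 4.33% lower). These shares were not counted for genes with at least 5 CPM alone, where DT genes were more frequent. Counts of non-overlapping members at that level therefore have no like share. Upregulated genes with at least 5 CPM had a median transcript length of 4310 bases and downregulated genes of 2638.5 bases, against 3570 bases for all genes of that level, and where the removal of trends of GC content and length moved a count or a printed median of a whole list by more than 1.5 times, the value is given with it. In each list below, the count of DT members is to be read against those shares. For lists with nearly all members at 5 CPM or more, these are 23.0% up and 17.4% down. Where many members were below 5 CPM, no share given here is a like one for the count over all members. A list's median log2 fold change covers members with at least 5 CPM. It is to be read against 0.01 for all genes of that level. Members were chosen with earlier results of these data known, so the counts are no tests of a pathway.

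The astrocyte-defining genes had a high summed level in both groups, above that of input. An excess over input was not particular to astrocytes, since the oligodendrocyte, neuron and ependymal sums given below also lay above input. The excess alone therefore does not test the astrocyte label. The summed level of 28 astrocyte-defining genes was 9892 to 10177 CPM in the control dishes and 9929 to 10850 CPM in the ethanol dishes, against 6095 to 6473 CPM in the input libraries. *Aldh1l1* itself had a median of 378 CPM in control and 365 CPM in ethanol dishes and was not DT (adjusted p = 0.093). *Rpl10a*, whose reads include the transgene's, was at 248 and 237 CPM (adjusted p = 0.25).

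The largest increases with at least 5 CPM and no overlap between the groups, apart from *Ypel4*, included *Hapln4*, which encodes a link protein that ties hyaluronan to lecticans, and *Arrdc3*, which encodes an arrestin-like adaptor. *Hapln4* was at 6.31 to 7.07 CPM in the control dishes (median 6.68) and at 9.59 to 10.0 CPM in the ethanol dishes (median 9.76). No ethanol dish overlapped a control dish, and the log2 fold change was 0.56 ± 0.05, adjusted p = 1.0e-13. *Kifc2*, a minus-end kinesin gene (0.53 ± 0.064, adjusted p = 1.5e-09), *Dnm1*, the neuronal form of dynamin (0.47 ± 0.047, adjusted p = 4.7e-12), *Spock2*, a testican proteoglycan (0.44 ± 0.045, adjusted p = 1.2e-11), and *Cpxm1*, a secreted carboxypeptidase-like protein (0.44 ± 0.044, adjusted p = 5.2e-12), rose as well. *Akap5*, an anchoring protein for protein kinase A, was among the 12 largest decreases. Control dishes had 30.7 to 33.8 CPM of *Akap5* (median 31.9) and ethanol dishes 20.9 to 24.8 CPM (median 22.4). The groups were far apart, with a log2 fold change of -0.51 ± 0.037, adjusted p = 2.4e-17. *Ndufb2*, a complex I subunit, fell by 0.61 on the log2 scale (adjusted p = 1.8e-12). *Mrvi1*, a cGMP kinase substrate of smooth muscle, fell as well (-0.55 ± 0.047, adjusted p = 2.2e-14). In the GRCm38 annotation *Hapln4* lies at chr8:70083457-70090862, *Arrdc3* at chr13:80883384-80896042, *Akap5* at chr12:76324891-76334153 and *Mrvi1* at chr7:110868266-110982461. Counts cover the exons of each gene.

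**Figure D1:**
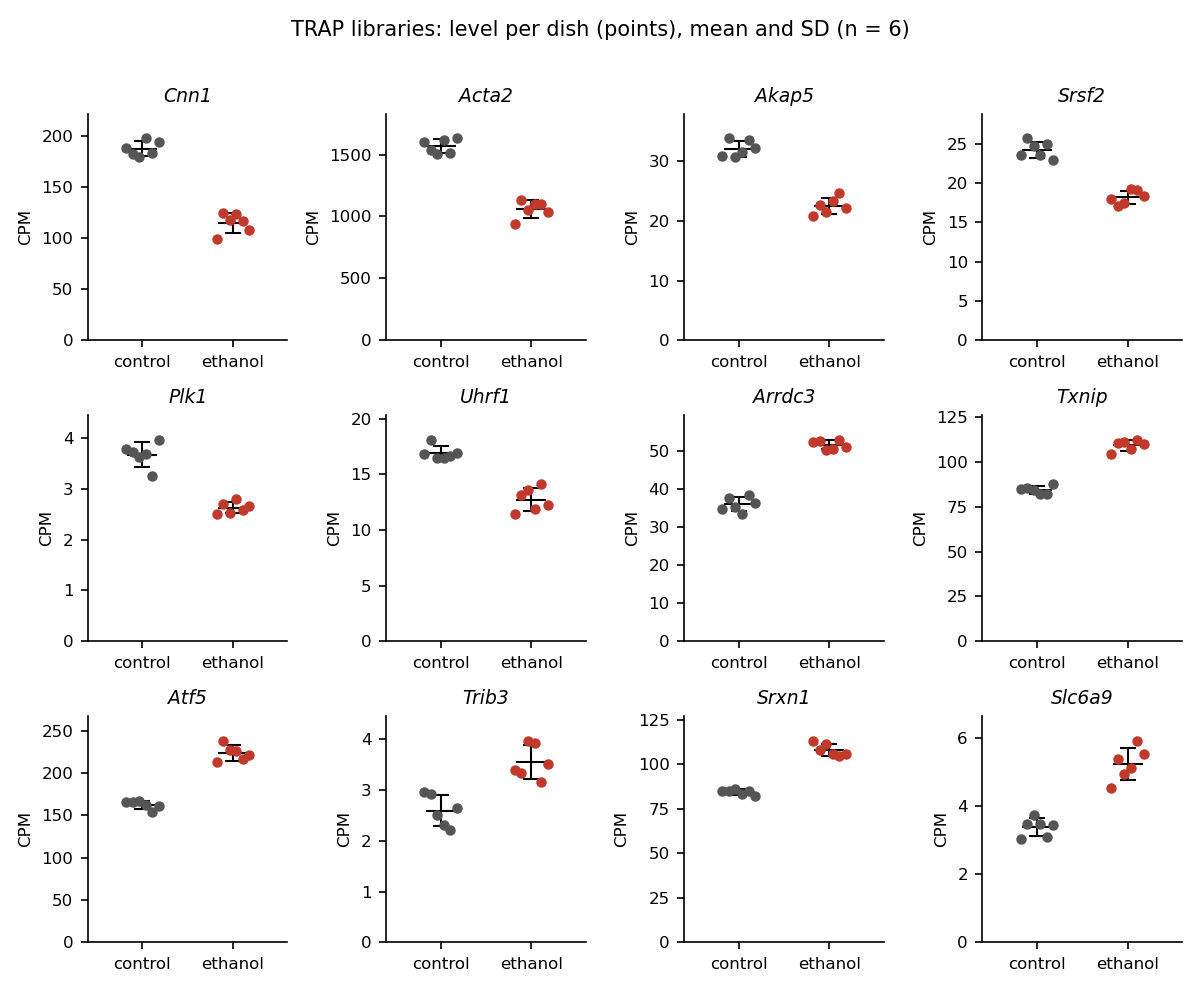
Level in CPM (vertical axis, linear from 0) of 12 genes in each of the 6 control and 6 ethanol dishes of the IP fraction. Points are dishes and bars are the mean with SD (n = 6). In each of the 12 panels the ethanol points lie wholly below (*Cnn1*, *Acta2*, *Akap5*, *Srsf2*, *Plk1*, *Uhrf1*) or wholly above (*Arrdc3*, *Txnip*, *Atf5*, *Trib3*, *Srxn1*, *Slc6a9*) the control points.

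Genes of the contractile cytoskeleton were downregulated by ethanol as a group. Many of them, smooth muscle actin, calponin and tropomyosin among them, are known targets of serum response factor (SRF), which with its actin-sensing cofactors reads the state of the actin cytoskeleton. Of 35 members tested, 26 fell and 1 rose, against 9.48% and 11.9% of all genes. Among genes with at least 5 CPM those shares were 17.4% and 23.0%. The median of the 31 members at that level was -0.23. None rose and 29 fell with trends of GC content and length removed, and none rose without any 1 of control replicates 1 to 4 and ethanol replicates 2, 4, 5 and 6. In 22 of these 31 members every ethanol value lay below every control value, against 4.33% of all genes tested, of any level. The summed level of the list was 18655 to 19307 CPM in control and 15169 to 16525 CPM in ethanol dishes. *Cnn1* was at 179 to 198 CPM in the control dishes (median 186) and at 99.1 to 125 CPM in the ethanol dishes (median 117). This calponin gene had the largest decrease of the list, with no overlap and a log2 fold change of -0.70 ± 0.055, adjusted p = 2.4e-06. Control dishes had 1502 to 1631 CPM of *Acta2* (median 1569) and ethanol dishes 938 to 1136 CPM (median 1074). Smooth muscle actin thus also fell without overlap (log2 fold change -0.56 ± 0.04, adjusted p = 7.2e-08). The myosin regulatory light chain gene *Myl9* fell from a median of 509 to 364 CPM (-0.48 ± 0.038, adjusted p = 3.8e-08), *Tpm1*, a tropomyosin, from 1249 to 962 CPM (-0.38 ± 0.022, adjusted p = 3.1e-21), and *Lmod1*, a leiomodin that nucleates actin filaments, from 121 to 89.5 CPM (-0.43 ± 0.032, adjusted p = 8.2e-12). Cytoplasmic beta-actin, *Actb*, fell less, from 3276 to 2863 CPM (-0.23 ± 0.039, adjusted p = 4.7e-04). *Srf* itself was downregulated. *Srf* was at 73.7 to 82.1 CPM in the control dishes (median 75.9) and at 59.7 to 66.6 CPM in the ethanol dishes (median 64). Its groups did not overlap either (-0.27 ± 0.028, adjusted p = 2.2e-11). In the input libraries 28 of the 35 members fell and 1 rose, with a median of -0.22.

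The promoters of *Myl9* and *Srf* are shown because both genes fell and both hold the motif that SRF is known to bind. The CArG box (searched on both strands from 250 bases before to 50 after the RefSeq start, GRCm38.p6) was found in 9 of 33 promoters of the list (27.3%) and in 1.63% of all 32851 promoters. The 250 bases before the start are printed 5′ to 3′ on the gene's strand, with each CArG box in capitals, 161 bases before the start in *Myl9* (chr2:156775214-156775463, plus strand) and 82 and 62 bases before it in *Srf* (chr17:46556163-46556412, minus strand).
Myl9: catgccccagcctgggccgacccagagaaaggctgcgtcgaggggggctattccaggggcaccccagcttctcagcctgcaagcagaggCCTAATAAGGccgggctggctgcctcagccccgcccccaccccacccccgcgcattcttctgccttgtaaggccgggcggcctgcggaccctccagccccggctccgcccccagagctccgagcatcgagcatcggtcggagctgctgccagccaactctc
Srf: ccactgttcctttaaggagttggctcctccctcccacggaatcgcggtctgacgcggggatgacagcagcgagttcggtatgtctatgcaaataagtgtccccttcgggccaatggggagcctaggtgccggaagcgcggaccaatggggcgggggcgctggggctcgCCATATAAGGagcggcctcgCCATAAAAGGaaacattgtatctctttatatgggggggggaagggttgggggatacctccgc
A match describes the letters of this window, and binding was not measured. The lists searched for motifs, here and below, were written around known targets or pathways. A share above that of all promoters therefore does not bear on the ethanol response.

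**Figure D2:**
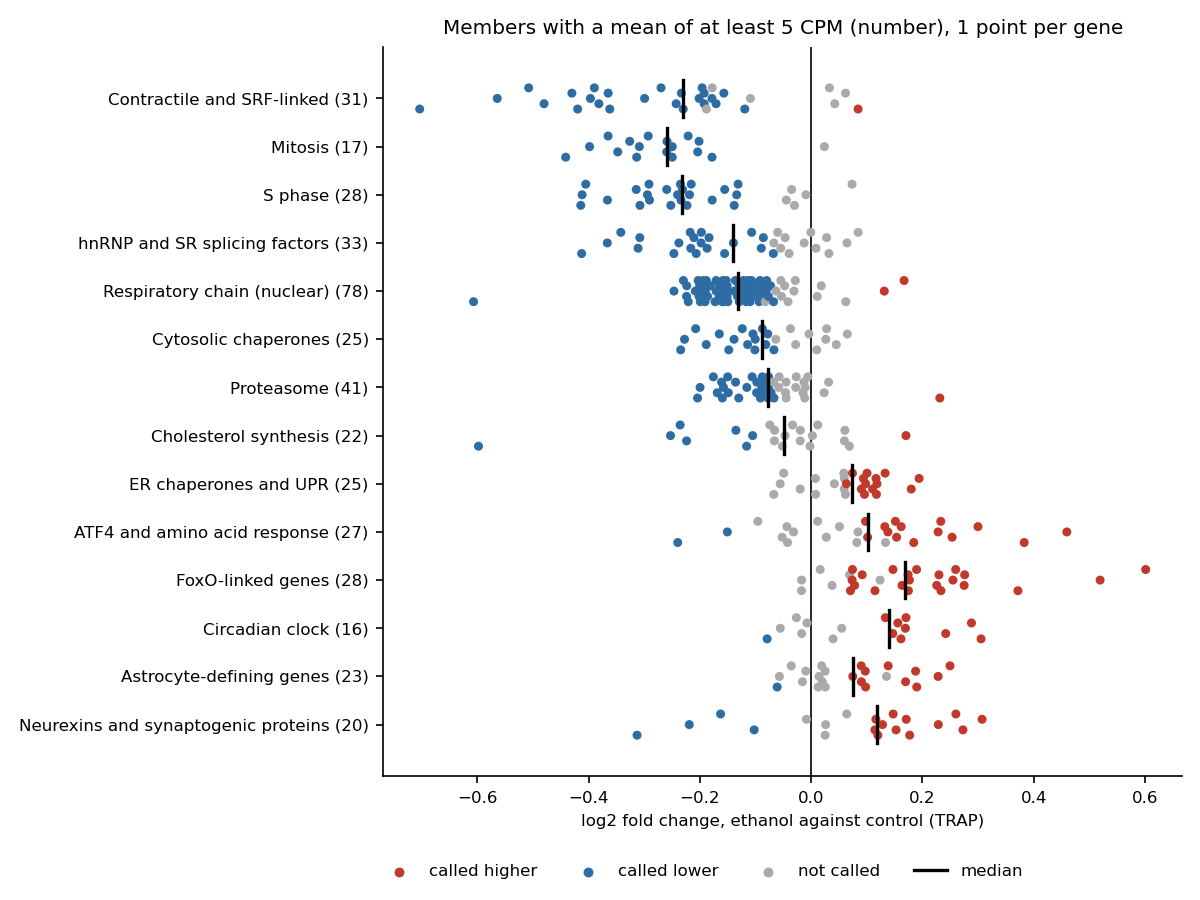
Log2 fold change (ethanol over control, IP fraction) of every member with a mean of at least 5 CPM in 14 lists. Each point is a gene and each bar the median of its list, for example -0.23 for the contractile list and 0.17 for the FoxO-linked list.

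Most cell division genes were downregulated by ethanol. Of 30 mitotic genes tested, 29 fell and none rose in edgeR, DESeq2 or at an unadjusted p under 0.05, and of 35 genes of S phase 27 fell and none rose (1 was higher at an unadjusted p under 0.05, none in DESeq2, and 1 rose without ethanol replicate 1). With trends of GC content and length removed, 28 mitotic genes fell and 1 rose. The medians were -0.26 and -0.23. The summed level of the mitotic list was 279 to 298 CPM in control and 237 to 248 CPM in ethanol dishes, and that of the S phase list 577 to 598 and 502 to 521 CPM. *Plk1* was at 3.24 to 3.96 CPM in the control dishes (median 3.70) and at 2.50 to 2.79 CPM in the ethanol dishes (median 2.62). This mitotic kinase gene was low but fell without overlap (-0.48 ± 0.075, adjusted p = 1.1e-06). *Mki67*, the proliferation marker Ki-67 (-0.40 ± 0.046, adjusted p = 6.4e-10), *Top2a*, the topoisomerase that untangles chromosomes (-0.33 ± 0.037, adjusted p = 2.4e-10), *Nuf2*, a kinetochore protein (-0.47 ± 0.074, adjusted p = 1.3e-06), and *Ube2c*, the ubiquitin-conjugating enzyme of the anaphase-promoting complex (-0.47 ± 0.077, adjusted p = 3.8e-06), fell in the same way. *Cdk1*, the kinase that starts mitosis, went from a median of 18.1 to 15.6 CPM (-0.22 ± 0.039, adjusted p = 1.2e-05). The exception among mitotic genes was *Pttg1*, securin, with 53.5 and 54 CPM (0.024 ± 0.029, adjusted p = 0.65). In the S phase list the largest decrease was that of *Cdc6*, which loads the MCM helicase onto DNA (-0.63 ± 0.087, adjusted p = 4.8e-08). All 6 subunits of that helicase fell, with *Mcm5* (-0.41 ± 0.044, adjusted p = 4.0e-11) and *Mcm3* (-0.41 ± 0.038, adjusted p = 7.1e-13) the most. Control dishes had 16.5 to 18.1 CPM of *Uhrf1* (median 16.7) and ethanol dishes 11.4 to 14.1 CPM (median 12.7). The values of *Uhrf1*, which keeps DNA methylation through replication, did not overlap (-0.41 ± 0.045, adjusted p = 7.1e-11). *Pcna*, the sliding clamp, fell by 0.22 on the log2 scale (adjusted p = 1.8e-08), and *Ccnd1*, cyclin D1, from 3282 to 2771 CPM (-0.24 ± 0.021, adjusted p = 1.2e-13). In the input libraries 27 of the 30 mitotic and 23 of the 35 S phase genes fell, with medians of -0.33 and -0.27.

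The promoters of *Cdk1*, *Top2a* and *Uhrf1* are shown because these cell cycle genes fell and hold the motif known from their class. The cell cycle homology region (TTTGAA, either strand) was found in 21 of 28 promoters of the mitotic list (75%) and in 17.9% of all promoters, and the E2F site (TTCCCGCC, either strand) in 6 of 33 promoters of the S phase list (18.2%) and in 2.19% of all. The matches are in capitals, 71 and 15 bases before the start in *Cdk1* (chr10:69352913-69353162, minus strand), 179 and 23 bases before it in *Top2a* (chr11:99024190-99024439, minus strand) and 48 bases before it in *Uhrf1* (chr17:56303087-56303336, plus strand, the 1 of its 2 RefSeq starts with a match).
Cdk1: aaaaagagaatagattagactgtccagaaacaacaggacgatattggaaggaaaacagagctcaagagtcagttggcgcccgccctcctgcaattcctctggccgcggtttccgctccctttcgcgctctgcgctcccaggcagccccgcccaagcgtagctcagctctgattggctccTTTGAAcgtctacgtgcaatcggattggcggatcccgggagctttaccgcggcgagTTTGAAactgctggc
Top2a: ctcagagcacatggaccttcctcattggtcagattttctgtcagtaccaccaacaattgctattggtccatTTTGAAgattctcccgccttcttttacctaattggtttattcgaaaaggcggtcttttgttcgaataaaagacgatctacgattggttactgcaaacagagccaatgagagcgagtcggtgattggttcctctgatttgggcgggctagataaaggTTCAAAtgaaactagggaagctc
Uhrf1: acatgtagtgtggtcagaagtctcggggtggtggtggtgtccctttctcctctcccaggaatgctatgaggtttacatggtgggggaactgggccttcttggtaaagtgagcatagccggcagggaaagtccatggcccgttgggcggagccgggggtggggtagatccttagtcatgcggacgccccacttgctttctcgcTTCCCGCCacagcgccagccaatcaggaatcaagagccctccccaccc
The motif letters were searched in the same 300-base windows as above.

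**Figure D3:**
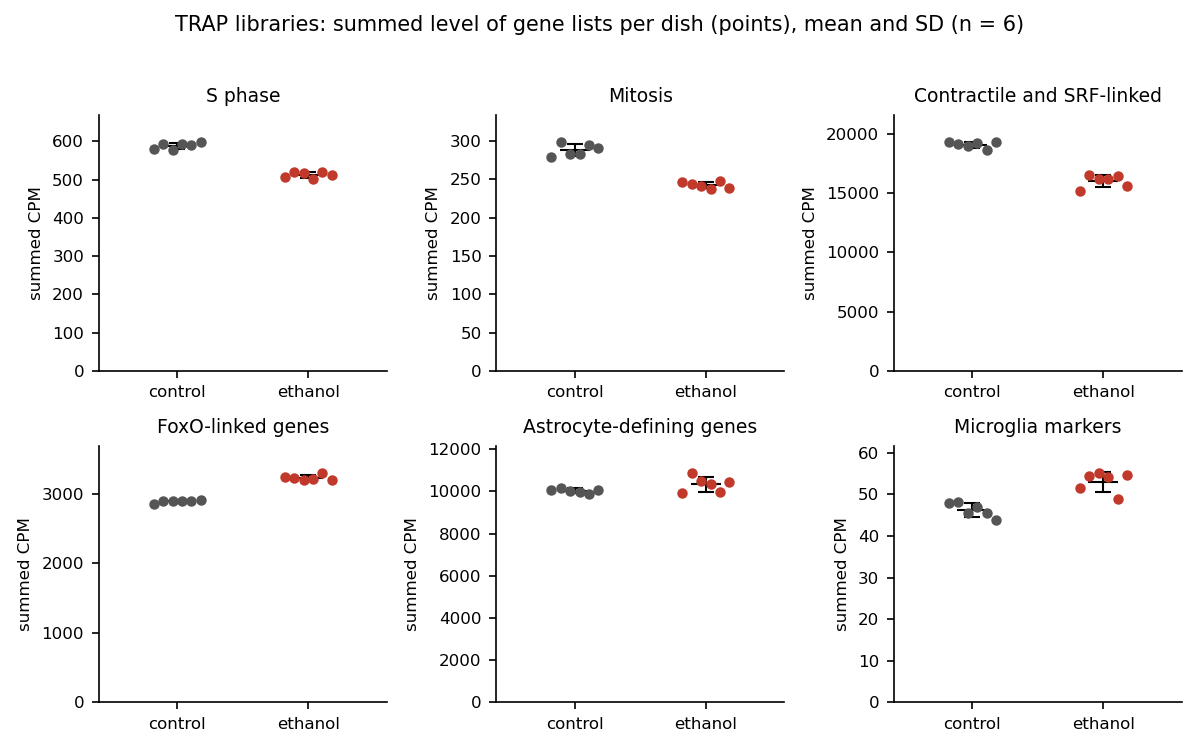
Summed level in CPM (vertical axis) of 6 gene lists in each dish of the IP fraction, control and ethanol. Points are dishes. The S phase, mitotic and contractile sums lie lower in every ethanol dish, the FoxO-linked and microglia sums lie higher in every ethanol dish, and the astrocyte-defining sums overlap (9892 to 10177 and 9929 to 10850 CPM).

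Splicing factors, chaperones and the proteasome were mostly downregulated. Of 33 hnRNP and SR proteins, which coat pre-mRNA and choose splice sites, 21 fell and none rose in edgeR, DESeq2 or at an unadjusted p under 0.05 (median -0.14), 6 of the 11 SR proteins and 13 of the 20 hnRNP proteins among them. *Srsf2* was at 22.9 to 25.7 CPM in the control dishes (median 24.2) and at 17.1 to 19.2 CPM in the ethanol dishes (median 18.1). The groups did not overlap (-0.41 ± 0.038, adjusted p = 2.7e-13). *Srsf3* (-0.37 ± 0.029, adjusted p = 1.1e-15), *Srsf7* (-0.34 ± 0.042, adjusted p = 2.3e-09), *Srsf1* (-0.31 ± 0.026, adjusted p = 2.4e-14) and *Hnrnpd*, which also binds AU-rich elements (-0.31 ± 0.029, adjusted p = 1.1e-12), fell likewise. Of 26 cytosolic chaperones, 16 fell and none rose in edgeR or DESeq2 (1 was higher at an unadjusted p under 0.05, and 1 rose without control replicate 2 or ethanol replicate 5 or with trends of GC content and length removed), with a median of -0.088. They included 6 of the 8 subunits of TRiC, which folds actin and tubulin. *Cct3*, a TRiC subunit, fell from 239 to 203 CPM (-0.23 ± 0.023, adjusted p = 7.7e-12), and *Stip1*, which joins HSP70 and HSP90, from 329.7 to 277 CPM (-0.23 ± 0.026, adjusted p = 1.3e-10). *Hspa8*, the constitutive HSP70, fell by 0.11 on the log2 scale (adjusted p = 1.3e-04). Of 43 proteasome genes, 26 fell and 1 rose (median -0.077, and -0.049 with those trends removed). *Psmb5*, a catalytic subunit, fell (-0.20 ± 0.031, adjusted p = 5.9e-07), and *Psme4*, the activator PA200, was the member that rose (0.23 ± 0.028, adjusted p = 1.6e-09).

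Genes that make proteins or carry them through the nuclear pore were more mixed. Of 23 cytosolic tRNA synthetases and their scaffold proteins, 11 fell and none rose in edgeR, DESeq2 or at an unadjusted p under 0.05 (median -0.065), with *Eef1e1*, a scaffold of the synthetase complex, the most (-0.30 ± 0.039, adjusted p = 1.5e-08). Of 60 translation initiation and elongation factors, 18 fell and 6 rose. *Eif4a1*, the helicase of the cap-binding complex, fell from 407 to 343 CPM (-0.24 ± 0.022, adjusted p = 2.9e-13), and *Eif2s1*, the alpha subunit of eIF2, from 74.2 to 64 CPM (-0.22 ± 0.027, adjusted p = 3.0e-09). *Eif4b*, a cofactor of eIF4A in unwinding mRNA (0.14 ± 0.023, adjusted p = 2.5e-06), and *Eif4ebp2*, a repressor of cap binding (0.11 ± 0.024, adjusted p = 2.5e-04), rose. Of 44 nuclear transport genes, 16 fell and 6 rose. *Ranbp1*, a regulator of the GTPase Ran, fell without overlap (-0.30 ± 0.028, adjusted p = 5.2e-13), while *Xpo1*, the main export receptor for proteins, rose without overlap (0.31 ± 0.033, adjusted p = 5.4e-10).

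The nuclear-encoded respiratory chain was downregulated across its complexes. Of 84 members, 66 fell and 2 rose, and the median of the 78 members with at least 5 CPM was -0.13. In 31 of these the groups did not overlap with ethanol lower, and in 2 with ethanol higher, against 4.33% and 5.67% of all genes tested, of any level. The decreases comprised 31 of 37 genes of complex I (NADH dehydrogenase), 3 of 4 of complex II, 7 of 9 of complex III, 11 of 17 of complex IV (cytochrome oxidase) and 14 of 17 of ATP synthase and its close relatives. *Ndufs8*, an iron-sulfur subunit of complex I, had 66.7 to 72.1 CPM in control dishes (median 68.9) and 57 to 59.9 CPM in ethanol dishes (median 57.9). The groups did not overlap (-0.25 ± 0.027, adjusted p = 8.2e-11). The 2 genes that rose were *Cox6b2*, a tissue-specific subunit of complex IV (0.17 ± 0.029, adjusted p = 8.3e-06), and *Atp5sl*, which is named after ATP synthase (0.13 ± 0.037, adjusted p = 0.0065). *Slc25a3*, the carrier that brings phosphate to ATP synthase, fell from 431 to 357 CPM (-0.28 ± 0.023, adjusted p = 1.6e-15). These genes have short transcripts. With trends of GC content and length removed, 52 fell and 5 rose and the median was -0.077, and in the input libraries 45 fell and 1 rose (median -0.087).

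Glycolysis and the hypoxia response moved in both directions. Of 22 genes of glycolysis and lactate, 8 fell and 6 rose (3 rose without control replicate 1 or ethanol replicate 3). *Hk2*, hexokinase 2, fell (-0.26 ± 0.037, adjusted p = 4.1e-07), as did *Pgk1* (-0.15 ± 0.023, adjusted p = 1.6e-06) and *Pgam1* (-0.13 ± 0.025, adjusted p = 2.4e-05), enzymes of the lower pathway. The transporters that bring in glucose and pass lactate rose, *Slc2a1* (GLUT1) from 55.7 to 61 CPM (0.17 ± 0.029, adjusted p = 9.2e-06) and *Slc16a1* (MCT1) from 79 to 88.2 CPM (0.18 ± 0.027, adjusted p = 3.7e-07). *Ldha*, lactate dehydrogenase A, had medians of 282 and 274 CPM (-0.032 ± 0.024, adjusted p = 0.41). Of 20 hypoxia-response genes 4 rose and 4 fell. *Mxi1*, an antagonist of MYC (0.18 ± 0.031, adjusted p = 3.7e-06), and *Kdm3a*, a histone demethylase (0.16 ± 0.028, adjusted p = 1.0e-05), rose, and *Higd1a*, a mitochondrial protein of the respiratory chain, fell (-0.22 ± 0.03, adjusted p = 2.4e-08).

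Lipid genes changed in smaller numbers. Of the 25 genes of the cholesterol list, 8 fell and 1 rose (13 fell and 1 rose with trends of GC content and length removed), and the median was -0.049. *Stard4*, which carries sterols between membranes, had 10.7 to 12.2 CPM in control dishes (median 11.8) and 9.51 to 10.1 CPM in ethanol dishes (median 9.75). Its groups did not overlap (-0.25 ± 0.046, adjusted p = 1.6e-05). *Nsdhl*, a late enzyme of cholesterol synthesis, fell (-0.24 ± 0.042, adjusted p = 1.3e-05), while *Sqle* (-0.066 ± 0.025, adjusted p = 0.052) and *Hmgcs1* (-0.034 ± 0.027, adjusted p = 0.44) did not pass the test. The sterol regulatory element (TCACNCCAC, either strand) was found in 1 of 20 promoters of the list (5.0%), that of *Hmgcs1*, and in 1.24% of all promoters. Of 24 genes of fatty acid synthesis and lipid export, 5 rose and 4 fell, and with those trends removed 5 rose and 8 fell. *Lpl*, lipoprotein lipase (0.30 ± 0.046, adjusted p = 7.9e-07), and *Scd2*, a fatty acid desaturase (0.11 ± 0.023, adjusted p = 2.8e-04), rose, and the fatty acid binding proteins *Fabp5* (-0.26 ± 0.039, adjusted p = 5.8e-07) and *Fabp7* (-0.17 ± 0.025, adjusted p = 3.7e-07) fell.

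Genes linked to FoxO factors or to loss of growth factor signals mostly rose. The list is not one of FoxO targets alone and includes *Foxo* genes themselves and *Ypel* and *Arrdc* genes. Members of this list were chosen with earlier results of these data known, so its count is no test of the pathway. FoxO transcription factors are held in the cytoplasm by the PI3K and AKT pathway and enter the nucleus when that pathway is weak. Of 30 members tested, 23 rose and none fell in edgeR, DESeq2 or at an unadjusted p under 0.05. The median was 0.17. In 18 of the 28 members with at least 5 CPM the groups did not overlap, with ethanol higher, against 5.67% of all genes tested, of any level. The summed level was 2844 to 2910 CPM in control and 3193 to 3289 CPM in ethanol dishes. *Arrdc3* was at 33.5 to 38.3 CPM in the control dishes (median 35.8) and at 50.2 to 53 CPM in the ethanol dishes (median 51.7). This gave the largest change of the list after *Ypel4*, a gene of the yippee family, with no overlap (0.52 ± 0.031, adjusted p = 1.8e-20 for *Arrdc3* and 0.60 ± 0.055, adjusted p = 3.7e-13 for *Ypel4*). Control dishes had 81.9 to 87.9 CPM of *Txnip* (median 84.5) and ethanol dishes 104 to 112 CPM (median 110.0). *Txnip*, an inhibitor of thioredoxin and of glucose uptake, rose without overlap (0.37 ± 0.026, adjusted p = 7.6e-18). *Ypel3*, another yippee gene (0.28 ± 0.038, adjusted p = 1.5e-05), *Pik3ip1*, a brake on PI3K (0.23 ± 0.023, adjusted p = 7.9e-12), and *Ccng2*, cyclin G2 (0.17 ± 0.034, adjusted p = 6.1e-05), rose, and so did the factors *Foxo3* (0.16 ± 0.023, adjusted p = 9.2e-08) and *Foxo4* (0.27 ± 0.026, adjusted p = 1.7e-12). *Foxo4* was named after its value was seen. In the input libraries 17 members rose and none fell, with a median of 0.12.

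The promoter of *Txnip* is shown because the gene rose and holds a FoxO site. This motif (TGTTTAC, either strand) was found in 3 of 29 promoters of the list (10.3%) and in 3.65% of all promoters. It is in capitals on the opposite strand, 121 bases before the start (chr3:96557707-96557956, plus strand).
Txnip: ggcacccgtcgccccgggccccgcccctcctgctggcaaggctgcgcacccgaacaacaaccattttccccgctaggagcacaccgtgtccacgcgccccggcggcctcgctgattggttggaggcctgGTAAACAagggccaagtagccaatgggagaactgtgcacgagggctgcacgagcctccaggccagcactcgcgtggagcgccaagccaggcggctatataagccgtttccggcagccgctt
The other members with a RefSeq promoter have no such letters in their windows apart from 2.

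The PI3K, AKT and mTOR list and the autophagy list changed less than the FoxO-linked list. FoxO activity was not measured, and a link of FoxO to the lists of this paragraph was not tested. Of 30 genes of PI3K, AKT and mTOR signalling, 11 rose and 3 fell, but 7 rose and 8 fell with trends of GC content and length removed, and without ethanol replicate 6 only 1 fell. *Pik3ca*, a catalytic subunit of PI3K, rose (0.17 ± 0.028, adjusted p = 3.3e-06). *Mtor* was at 65.6 and 62.8 CPM (-0.051 ± 0.028, adjusted p = 0.23). Of 33 autophagy genes 10 rose and 1 fell (median 0.041), while 3 fell in DESeq2, and none or 2 without any single dish other than control replicate 1 and ethanol replicate 1. The kinases that start autophagy, *Ulk1* (0.18 ± 0.027, adjusted p = 5.9e-07) and *Ulk2* (0.17 ± 0.026, adjusted p = 1.6e-06), were among those that rose, while *Map1lc3b*, the membrane mark LC3B, was at 413 and 415 CPM (0.0049 ± 0.023, adjusted p = 0.93). Of 19 circadian clock genes, 10 rose and 1 fell, with a median of 0.14. *Dbp*, a clock output factor, had 61.4 to 65 CPM in control dishes (median 62.8) and 72.3 to 83.3 CPM in ethanol dishes (median 77.7), with no overlap (0.31 ± 0.028, adjusted p = 4.3e-13). The repressors *Per3* (0.29 ± 0.038, adjusted p = 2.4e-08), *Cry2* (0.24 ± 0.031, adjusted p = 7.6e-09) and *Nr1d1* (0.17 ± 0.03, adjusted p = 9.6e-06) rose, while *Arntl*, the activator BMAL1, was at 25.4 and 25 CPM (-0.0076 ± 0.036, adjusted p = 0.93). The E-box (CACGTG) was found in 6 of 21 promoters of the clock list (28.6%) and in 7.15% of all. The time of day at which the dishes were collected is not given in the sources used here.

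**Figure D4:**
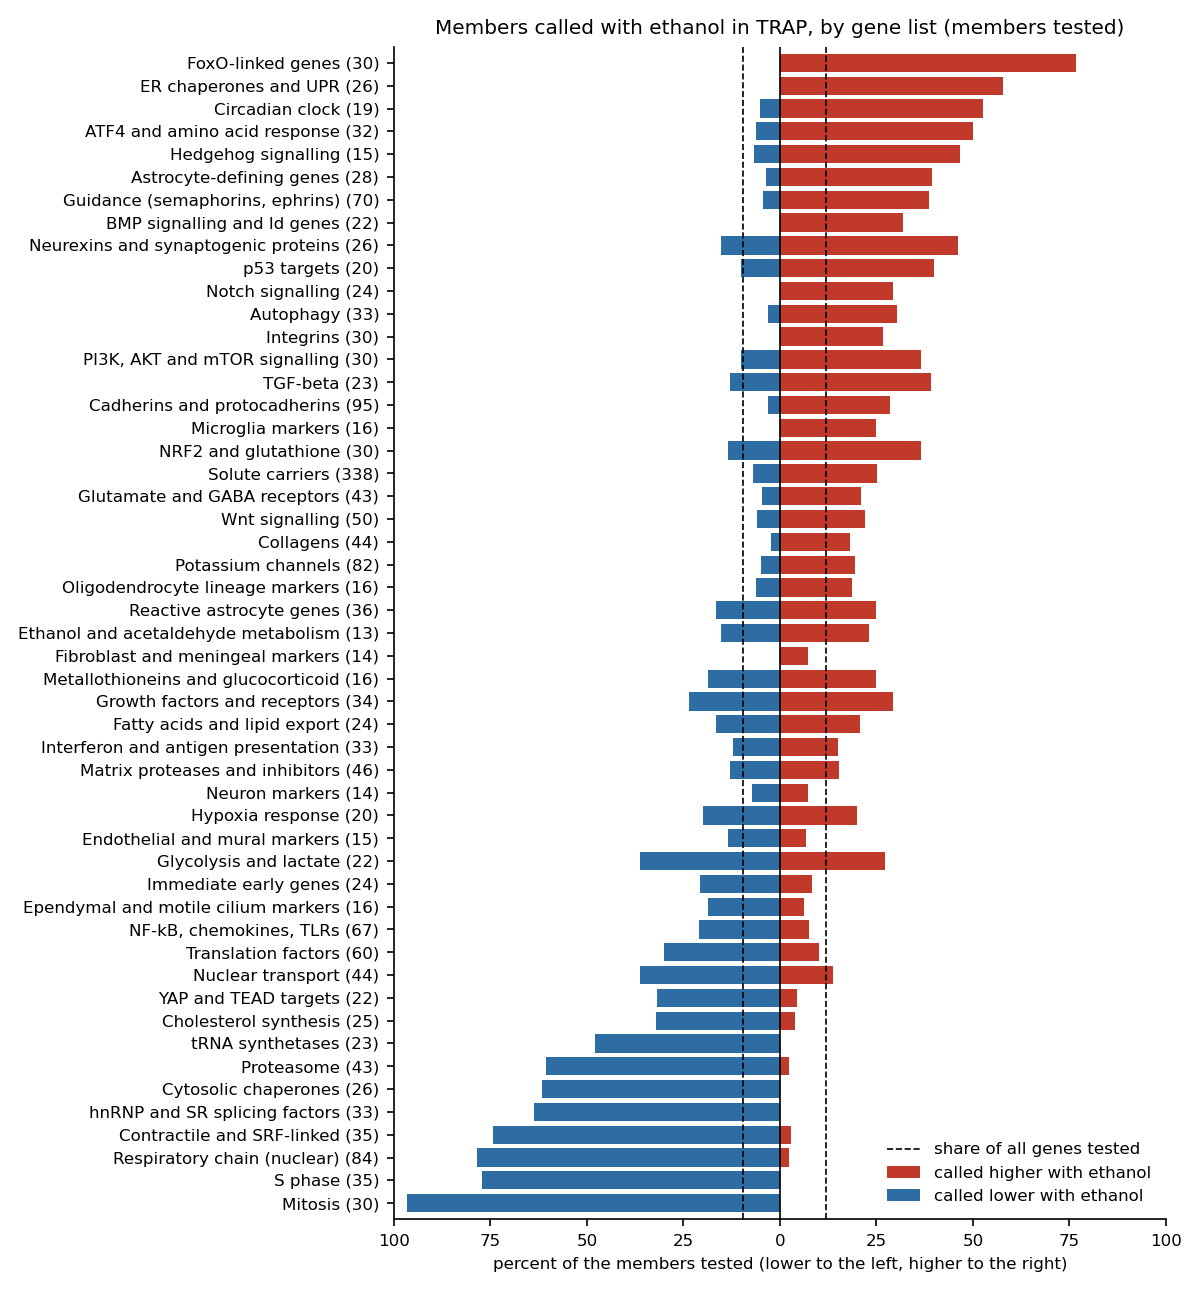
Percent of the tested members of each of 51 lists that were upregulated or downregulated by ethanol in the IP fraction (edgeR, adjusted p below 0.05). The dashed lines mark the share of all genes tested, 11.9% up and 9.48% down. Among genes with at least 5 CPM the shares were higher, 23.0% up and 17.4% down, and are not drawn. The mitotic, respiratory chain, S phase and contractile lists reach farthest down and the FoxO-linked list farthest up.

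The amino acid response was upregulated in part. ATF4 is made when translation initiation is slowed by stress or lack of amino acids, and its targets import and make amino acids. Of 32 members 16 rose and 2 fell (median 0.10), and 4 fell with trends of GC content and length removed. *Atf5* was at 154.2 to 167.4 CPM in the control dishes (median 164.04) and at 213 to 238 CPM in the ethanol dishes (median 224). *Atf5*, a stress-induced factor related to ATF4, rose without overlap (0.46 ± 0.025, adjusted p = 6.0e-22). Control dishes had 2.21 to 2.95 CPM of *Trib3* (median 2.58) and ethanol dishes 3.17 to 3.97 CPM (median 3.45). This pseudokinase gene, which restrains AKT, was low and rose (0.46 ± 0.082, adjusted p = 1.3e-05). *Atf4* itself rose by 0.10 (adjusted p = 0.0014) and *Ddit3*, the factor CHOP, from 63.3 to 75.3 CPM (0.25 ± 0.029, adjusted p = 3.6e-10). Among the transporters, *Slc6a9* (glycine, 0.63 ± 0.07, adjusted p = 1.6e-10), *Slc38a2* (neutral amino acids, 0.38 ± 0.027, adjusted p = 1.6e-17), *Slc7a11* (cystine, 0.30 ± 0.035, adjusted p = 8.4e-10) and its partner chain *Slc3a2* (0.23 ± 0.023, adjusted p = 6.8e-12) rose. The mitochondrial enzymes *Gpt2* (0.23 ± 0.031, adjusted p = 1.7e-08) and *Pck2* (0.14 ± 0.03, adjusted p = 3.3e-04) rose too. The members that fell were the enzymes of serine synthesis *Psat1* (-0.24 ± 0.033, adjusted p = 7.0e-08) and *Phgdh* (-0.15 ± 0.026, adjusted p = 8.7e-06), and *Asns*, asparagine synthetase, had 39.2 and 40.5 CPM (0.051 ± 0.03, adjusted p = 0.26).

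The promoters of *Slc7a11* and *Pck2* are shown because these members rose and hold the motif that ATF4 with C/EBP factors is known to bind. The C/EBP-ATF response element (TGATGNAAN, either strand) was found in 10 of 36 promoters of the list (27.8%) and in 3.95% of all promoters. The matches are in capitals, 66 and 48 bases before the start in *Slc7a11* (chr3:50443614-50443863, minus strand) and 104 bases before it in *Pck2* (chr14:55540016-55540265, plus strand).
Slc7a11: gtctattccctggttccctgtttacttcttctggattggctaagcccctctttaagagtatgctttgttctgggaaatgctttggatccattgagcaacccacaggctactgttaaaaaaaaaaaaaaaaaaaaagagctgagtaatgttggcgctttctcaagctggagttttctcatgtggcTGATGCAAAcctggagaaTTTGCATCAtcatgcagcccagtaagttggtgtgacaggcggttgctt
Pck2: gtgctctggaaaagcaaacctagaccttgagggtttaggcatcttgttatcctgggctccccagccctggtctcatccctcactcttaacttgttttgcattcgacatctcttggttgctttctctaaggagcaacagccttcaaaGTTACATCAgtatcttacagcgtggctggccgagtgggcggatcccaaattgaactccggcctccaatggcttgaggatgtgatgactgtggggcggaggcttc
The promoter of *Asns*, which did not pass the test, holds this motif as well.

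Of 26 chaperones of the endoplasmic reticulum and genes of the unfolded protein response, 15 rose and none fell, with a median of 0.074 (DESeq2 gave 15 higher and 2 lower, 2 were lower at an unadjusted p under 0.05, and 1 fell with trends of GC content and length removed or without control replicate 6, ethanol replicate 2 or ethanol replicate 3). *Sel1l* (0.18 ± 0.023, adjusted p = 7.1e-09) and *Herpud1* (0.19 ± 0.027, adjusted p = 5.1e-08), which act in the removal of misfolded proteins, rose the most among the members with at least 5 CPM. *Xbp1*, the factor of the IRE1 branch, was at 40.2 and 41.8 CPM (0.059 ± 0.03, adjusted p = 0.17). In the input libraries 6 members rose and none fell. The endoplasmic reticulum stress response element (CCAAT and CCACG set 9 bases apart, either strand) was found in 9 of 23 promoters of the list (39.1%) and in 0.119% of all promoters.

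Of 30 genes of the NRF2 and glutathione response, which handles oxidants, 11 rose and 4 fell, and 13 rose and 2 fell with trends of GC content and length removed. *Srxn1* was at 82 to 86.1 CPM in the control dishes (median 84.9) and at 105 to 113 CPM in the ethanol dishes (median 107). *Srxn1*, which repairs oxidised peroxiredoxins, rose without overlap (0.36 ± 0.026, adjusted p = 2.4e-17). *Gclc*, the catalytic subunit that makes the precursor of glutathione, rose from 71.9 to 90.3 CPM (0.31 ± 0.026, adjusted p = 3.6e-14), and *Osgin1* from 19.4 to 22.3 CPM (0.24 ± 0.039, adjusted p = 2.9e-06). *Nqo1*, a quinone reductase often used as an NRF2 marker, did not pass the test (0.057 ± 0.053, adjusted p = 0.52), and *Gpx1*, a glutathione peroxidase, fell (-0.11 ± 0.024, adjusted p = 2.9e-04). The antioxidant response element (TGACNNNGC, either strand) was found in 11 of 36 promoters of the list (30.6%) and in 12.4% of all. Of 13 genes that oxidise ethanol and acetaldehyde, 3 rose and 2 fell (1 fell without control replicate 2, ethanol replicate 4 or ethanol replicate 5). *Cat*, catalase (0.15 ± 0.023, adjusted p = 5.4e-07), and *Aldh2*, the mitochondrial acetaldehyde dehydrogenase (0.10 ± 0.026, adjusted p = 0.0019), rose, and *Aldh1a1*, which also makes retinoic acid, fell (-0.17 ± 0.033, adjusted p = 6.1e-04). Of 20 p53 targets 8 rose and 2 fell (7 and 4 without control replicate 6). *Btg2*, an antiproliferative gene (0.18 ± 0.024, adjusted p = 3.5e-08), and *Mdm2*, which degrades p53 (0.14 ± 0.025, adjusted p = 1.5e-05), rose, and *Cdkn1a*, the inhibitor p21, was at 1191 and 1153 CPM (-0.054 ± 0.023, adjusted p = 0.096).

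Among signalling pathways, ligands, receptors and targets did not move alike. In the TGF-beta list (23 genes) 9 rose and 3 fell. The ligand *Tgfb1* (0.18 ± 0.034, adjusted p = 5.3e-05), the co-receptor *Tgfbr3* (0.27 ± 0.032, adjusted p = 7.9e-10) and the target *Ctgf* (0.18 ± 0.027, adjusted p = 1.0e-06) rose, while *Bambi*, a pseudoreceptor that dampens the pathway, fell from 28.5 to 25.2 CPM (-0.17 ± 0.034, adjusted p = 5.8e-05). Of 22 BMP and Id genes 7 rose and none fell in edgeR (1 was lower in DESeq2 and at an unadjusted p under 0.05, and 1 fell without control replicate 3 or ethanol replicate 1, 4 or 5). With trends of GC content and length removed 8 rose and 3 fell. *Smad9* (0.25 ± 0.044, adjusted p = 1.6e-05) and the targets *Id2* (0.19 ± 0.03, adjusted p = 1.8e-06) and *Id3* (0.13 ± 0.026, adjusted p = 9.3e-05) rose. Of 22 YAP and TEAD targets 7 fell (4 without ethanol replicate 4) and 1, *Ctgf*, rose (2 without control replicate 2 or ethanol replicate 6). *Amotl2* (-0.18 ± 0.022, adjusted p = 3.2e-09) and *F3*, tissue factor (-0.19 ± 0.024, adjusted p = 4.5e-09), fell, while *Cyr61* was at 1044 and 977 CPM (-0.11 ± 0.067, adjusted p = 0.33).

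Members of 3 developmental pathways rose more often than they fell in the IP fraction. In the input libraries this held only for the Notch list (4 rose and 1 fell). In the Notch list (24 genes) 7 rose and none fell in edgeR or DESeq2 (1 was lower at an unadjusted p under 0.05), and 4 rose with trends of GC content and length removed. *Jag2* was at 5.95 to 7.89 CPM in the control dishes (median 6.81) and at 8.58 to 10.2 CPM in the ethanol dishes (median 9.59). This ligand gene rose without overlap (0.47 ± 0.059, adjusted p = 1.1e-08), as did the coactivator *Maml3* (0.29 ± 0.04, adjusted p = 8.8e-08). The receptor *Notch1* (0.075 ± 0.064, adjusted p = 0.5) and the target *Hes1* (-0.027 ± 0.037, adjusted p = 0.69) did not pass the test. Of 15 Hedgehog genes 7 rose and 1 fell (3 and 1 with those trends removed, and none and 1 in the input libraries). *Gli2* (0.22 ± 0.056, adjusted p = 0.002) and *Gli3* (0.16 ± 0.03, adjusted p = 3.3e-05), the factors of the pathway, rose, and the ligand *Shh* fell (-0.16 ± 0.045, adjusted p = 0.0062). Of 50 Wnt genes 11 rose (22%, against 11.9% of all genes tested) and 3 fell. Of the 27 with at least 5 CPM 10 rose, against 23.0% of genes at that level, and 3 fell. In the input libraries 6 Wnt genes rose and 6 fell. The ligand *Wnt4* rose (0.27 ± 0.057, adjusted p = 5.0e-04) and the feedback target *Axin2* fell (-0.15 ± 0.033, adjusted p = 6.4e-04). Among 34 growth factors and their receptors 10 rose and 8 fell. *Pdgfd* (0.23 ± 0.029, adjusted p = 1.4e-08), *Fgf2* (0.20 ± 0.034, adjusted p = 1.6e-05) and the receptor *Egfr* (0.13 ± 0.024, adjusted p = 3.2e-05) rose, and the neurotrophin *Bdnf* fell (-0.14 ± 0.04, adjusted p = 0.0058).

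Genes by which astrocytes touch and guide neurons rose more often than they fell. Of 70 semaphorins, ephrins, Slits, netrins and their receptors, 27 rose and 3 fell (17 and 7 with trends of GC content and length removed, 24 and 5 without ethanol replicate 5, and 9 and 6 in the input libraries). The median was 0.087, and 0.036 with those trends removed. The receptor gene *Ephb6* had 32.7 to 35.3 CPM in control dishes (median 33.7) and 38.4 to 44.7 CPM in ethanol dishes (median 42.1), with no overlap (0.30 ± 0.033, adjusted p = 6.2e-11), and *Sema4g*, a membrane semaphorin, rose (0.29 ± 0.049, adjusted p = 3.6e-06). *Sema7a*, a semaphorin anchored by lipid that promotes axon growth, fell from 32 to 24 CPM (-0.41 ± 0.035, adjusted p = 2.8e-14). Of 95 cadherins and protocadherins 27 rose and 3 fell (21 and 6 with those trends removed, and 6 and 6 in the input libraries). Of 52 clustered protocadherins, which give cells a surface identity, 15 rose and none fell. Those that rose belong to the alpha and gamma clusters, mostly the gamma. Within each of these clusters transcripts share exons, so that counts of single members are uncertain.

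Of 26 neurexins, neuroligins and synapse-inducing proteins 12 rose and 4 fell (median 0.12, and 0.062 with trends of GC content and length removed). *Nlgn1* (0.26 ± 0.042, adjusted p = 2.0e-06), *Nlgn2* (0.17 ± 0.025, adjusted p = 2.5e-07) and *Nrxn2* (0.27 ± 0.026, adjusted p = 6.2e-13), adhesion proteins of the synapse, and *Ptprd*, a receptor phosphatase that organises it (0.31 ± 0.047, adjusted p = 3.9e-06), rose. Of the secreted proteins, *Sparcl1* (hevin), which promotes synapses, rose (0.23 ± 0.026, adjusted p = 4.5e-10), and so did *Sparc*, its antagonist (0.11 ± 0.022, adjusted p = 3.7e-05). Control dishes had 1518 to 1641 CPM of *Thbs1* (median 1557) and ethanol dishes 1155 to 1360 CPM (median 1259). *Thbs1*, thrombospondin 1, fell without overlap (-0.31 ± 0.028, adjusted p = 1.4e-10). In the input libraries 6 members of this list rose and 3 fell, with a median of 0.011.

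Matrix genes changed in smaller numbers. Of 44 collagen genes 8 rose and 1 fell, but 4 rose and 5 fell with trends of GC content and length removed. None fell without control replicate 5, 2 fell without ethanol replicate 6 or in DESeq2, and 3 without ethanol replicate 5. The basement membrane chains *Col4a5* (0.27 ± 0.029, adjusted p = 5.8e-09) and *Col4a6* (0.25 ± 0.023, adjusted p = 5.4e-13) rose. Of 30 integrins 8 rose and none fell in edgeR, while DESeq2 gave 5 and none. Only 4 rose without control replicate 3 or ethanol replicate 4, and 5 without control replicate 1, 4, 5 or 6 or ethanol replicate 6, and 1 fell without ethanol replicate 5. With trends of GC content and length removed 5 rose and 3 fell. Of 46 matrix proteases and inhibitors 7 rose and 6 fell, and 6 rose and 10 fell with those trends removed. *Mmp11*, stromelysin 3, rose without overlap (0.29 ± 0.033, adjusted p = 1.9e-10), and *Adamts1* (-0.23 ± 0.027, adjusted p = 1.0e-09) and *Plaur*, the urokinase receptor (-0.36 ± 0.063, adjusted p = 1.1e-05), fell without overlap. *Ncan*, neurocan, a lectican of the perineuronal matrix, rose from 121 to 153.96 CPM (0.33 ± 0.025, adjusted p = 8.6e-16).

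Of 338 solute carriers 85 rose and 24 fell (74 and 20 of the 185 with at least 5 CPM, whose median was 0.065). Outside the mitochondrial carriers the count was 76 and 16 of 291, and among 47 mitochondrial carriers 9 and 8. *Slc6a9* was at 3.04 to 3.74 CPM in the control dishes (median 3.47) and at 4.55 to 5.93 CPM in the ethanol dishes (median 5.25). The glycine transporter GLYT1 thus rose without overlap. *Slc2a12*, a glucose transporter, rose (0.45 ± 0.074, adjusted p = 3.0e-06) and *Slc1a6*, the glutamate transporter EAAT4, fell (-0.44 ± 0.055, adjusted p = 4.6e-09). Of 82 potassium channel genes 16 rose and 4 fell. *Kcnq3*, a subunit of the M current channel, had 2.59 to 3.31 CPM in control dishes (median 3.10) and 3.92 to 4.94 CPM in ethanol dishes (median 4.49), with no overlap (0.56 ± 0.074, adjusted p = 1.4e-08), *Kcna2* rose (0.40 ± 0.071, adjusted p = 1.4e-05) and *Kcnk13*, a background potassium channel, fell (-0.22 ± 0.048, adjusted p = 2.9e-04). Of 43 glutamate and GABA receptor genes 9 rose and 2 fell (1 fell without control replicate 2, 3 or 6 or ethanol replicate 4 or 6, and none without ethanol replicate 3), with *Grid1* (0.27 ± 0.03, adjusted p = 1.8e-10) and *Grik3* (0.27 ± 0.046, adjusted p = 6.0e-06) among those that rose.

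Genes that define astrocytes rose more often than they fell, 11 and 1 of 28, with a median of 0.075. With trends of GC content and length removed 9 rose and 2 fell and the median was 0.042. None fell without ethanol replicate 1 or 4, and 2 without ethanol replicate 2, 3 or 6. In the input libraries 9 of these genes rose and 4 fell, with a median of 0.060. The water channel *Aqp4* had 248 to 265 CPM in control dishes (median 257) and 291 to 323 CPM in ethanol dishes (median 306), with no overlap (0.25 ± 0.024, adjusted p = 1.8e-12). The glutamate transporters *Slc1a3* (GLAST, 0.23 ± 0.024, adjusted p = 3.8e-11) and *Slc1a2* (GLT-1, 0.19 ± 0.035, adjusted p = 2.2e-04) rose without overlap too. *Gfap*, the intermediate filament of reactive astrocytes, was at 327 and 316 CPM (-0.016 ± 0.032, adjusted p = 0.82). Of 36 genes of reactive astrocytes 9 rose and 6 fell. *Osmr*, the oncostatin M receptor (0.29 ± 0.025, adjusted p = 2.8e-14), and *C3*, complement component 3 (0.20 ± 0.034, adjusted p = 2.5e-04), rose. *S100a10*, a marker of the type described after ischaemia, fell (-0.22 ± 0.027, adjusted p = 6.4e-09), and *Lcn2*, lipocalin 2, was at 4161 and 4154 CPM (0.0015 ± 0.06, adjusted p = 0.99).

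Inflammatory genes moved in both directions, with several chemokines among those that fell. The chemokines named below all fell, and they give no count for the chemokine family. In the list of NF-kB, chemokine and Toll-like receptor genes (67 tested) 14 fell and 5 rose (3 without control replicate 4 or ethanol replicate 1 and 8 without ethanol replicate 5). Control dishes had 19.4 to 25.6 CPM of *Ccl20* (median 22.4) and ethanol dishes 13.3 to 19 CPM (median 14.3). The groups did not overlap for *Ccl20*, which attracts lymphocytes (-0.56 ± 0.099, adjusted p = 0.0019). *Ccl2* (-0.33 ± 0.053, adjusted p = 6.6e-04), *Ccl7* (-0.34 ± 0.074, adjusted p = 0.0062), *Cxcl1* (-0.35 ± 0.062, adjusted p = 0.0019), *Cxcl2* (-0.34 ± 0.06, adjusted p = 2.0e-05) and *Cxcl10* (-0.36 ± 0.051, adjusted p = 2.2e-04), which attract monocytes, neutrophils or T cells and of which all but *Cxcl10* were named after their values were seen, fell, as did the cytokine *Il1b* (-0.51 ± 0.077, adjusted p = 7.4e-07). *Tlr4*, the receptor for endotoxin, rose (0.16 ± 0.046, adjusted p = 0.0069), and *Vcam1*, an adhesion protein for leukocytes, rose from 1979 to 2207 CPM (0.16 ± 0.025, adjusted p = 1.6e-06). In the interferon list (33 genes) 5 rose and 4 fell (4 and 8 without ethanol replicate 1). *Isg15* (-0.37 ± 0.083, adjusted p = 0.0078), *Mx1* (-0.41 ± 0.11, adjusted p = 0.0081) and *Usp18* (-0.27 ± 0.053, adjusted p = 0.0022), which are induced by type I interferon, fell, while the peptide transporter *Tap1* (0.17 ± 0.026, adjusted p = 1.3e-06) and the class I gene *H2-K1* (0.21 ± 0.036, adjusted p = 2.4e-04), whose reads near-identical class I genes may share, rose. Of 24 immediate early genes 2 rose and 5 fell. The number that rose was 4 in DESeq2, and 1 without control replicate 3 or 6 or ethanol replicate 5 or with trends of GC content and length removed. *Maff*, a small MAF factor, had 143.2 to 156.1 CPM in control dishes (median 150.7) and 115 to 124 CPM in ethanol dishes (median 119), with no overlap (-0.34 ± 0.025, adjusted p = 1.5e-16). *Egr2* rose (0.49 ± 0.12, adjusted p = 0.0095), and *Jun* was at 162.9 and 162.8 CPM (-0.010 ± 0.024, adjusted p = 0.84).

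Among the summed markers of 6 other cell types, those of microglia alone did not overlap between the groups. The summed level of 16 microglia markers was 43.8 to 48.1 CPM in control and 48.9 to 55.0 CPM in ethanol dishes, without overlap, against 214 to 249 CPM in input. Of these markers 4 rose and none fell in edgeR, DESeq2 or at an unadjusted p under 0.05. They were *Cd68* (16.3 and 19.6 CPM), *Laptm5* (4.83 and 5.62 CPM), *Csf1r* (3.69 and 4.64 CPM) and *Fcrls* (2.34 and 2.80 CPM, lost without control replicate 2 or ethanol replicate 2). Of the markers held to be most particular to microglia, *Tmem119* and *Cx3cr1* were below 1 CPM and *C1qa* was not, with medians in control and ethanol of 0.295 and 0.374 CPM for *Tmem119*, 0.571 and 0.620 CPM for *Cx3cr1* and 2.49 and 2.52 CPM for *C1qa*, and none of these passed the test. The part of microglial RNA in the results above, those of the cytokine and chemokine genes included, was not tested. The sums of the oligodendrocyte (401 to 423 and 379 to 411 CPM), neuron (222 to 236 and 216 to 233 CPM), endothelial and mural (220 to 236 and 218 to 250 CPM), fibroblast (475 to 517 and 489 to 527 CPM) and ependymal markers (460 to 499 and 477 to 529 CPM) overlapped between control and ethanol dishes. Among their members, *Olig1*, a factor of the oligodendrocyte lineage, fell (-0.17 ± 0.025, adjusted p = 3.6e-07) and *Cspg4*, NG2, rose (0.29 ± 0.038, adjusted p = 1.8e-08). The input sums of the oligodendrocyte (263 to 287 CPM), neuron (169 to 181 CPM) and ependymal markers (406 to 432 CPM) lay below all IP dishes. The input sum of the fibroblast markers (549 to 564 CPM) lay above all IP dishes. That of the endothelial and mural markers (245 to 255 CPM) overlapped with the ethanol dishes.

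The ethanol response of the IP fraction was compared with that of input. Tested as an interaction over 18 libraries, no gene differed in edgeR, while 1459 had an unadjusted p under 0.05. With each dish that gave both fractions as a block (12 libraries of 6 dishes), 0.416% of genes differed, 102 in all, 94 with a higher log2 fold change in IP and 8 with a lower one, and DESeq2 gave 4. *Nlgn2*, whose log2 fold change was 0.17 in all 12 IP libraries and -0.0046 in input, differed by 0.22 (adjusted p = 9.3e-06 with the dish as a block and 0.014 with trends of GC content and length also removed). *Col4a5* differed by 0.14 (adjusted p = 0.011, and 0.16 with those trends removed), and *Egr2* by 0.56 (adjusted p = 0.004 and 0.0045). *Hspe1*, the mitochondrial co-chaperone, fell more in IP, by a difference of -0.16 (adjusted p = 0.042 and 0.38).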

How the data were processed

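RNA of the IP (TRAP) and input fractions was sequenced from stranded, rRNA-depleted total RNA libraries. Per the labels and the study's methods, the authors used Trimmomatic for trimming and STAR for alignment to GRCm38 with Ensembl annotation (releases are not given in the sources used here), and deposited raw counts of read pairs per gene, without normalization or pooling. The deposited table of all libraries equalled the unstranded counts of the single libraries (0 differences over 51912 genes) and was used throughout. Pairs that mapped to several places (3.06% in IP) or were ambiguous between genes (5.48%) are not in the counts, which lowers genes with near-identical copies, and 4.33% of assigned pairs lay opposite to the annotated strand. Gene symbols that had turned into dates (26) were restored from GENCODE M21, which also gave positions, length and GC content for 51633 genes. Groups, replicate numbers and doses came from the labels. All mapped columns were used.

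From the deposited counts, CPM (TMM-scaled), medians and log2 fold changes were calculated. The TMM factors came from the 12 IP libraries for IP levels and from all 18 libraries for input levels. Ethanol was tested in the 12 IP libraries, for genes with a total of 10 or more pairs in all 18 libraries, with edgeR 4.0.16 (estimateDisp, robust glmQLFit, glmQLFTest) in R 4.3.3, adjusted by Benjamini and Hochberg over all genes tested. The SE is the log2 fold change divided by the square root of F. For the difference between fractions, an interaction was tested over 18 libraries, and with the dish as a block in 12 libraries, since input and IP libraries of a dish share its number. DESeq2 1.42.0, other size factors, other filters, sense-strand counts, splines of GC content and length and each dish left out were run as alternatives.

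Gene lists were written from general knowledge, and the members and lists were chosen with earlier results of these data known. They carry no test of their own. Of 2079 entries in the lists, 2001 passed the filter, and 2 symbols had no match. A mean of at least 5 CPM was required for medians of lists. Genes were named by rule: the 12 largest significant increases and decreases among non-overlapping genes of 5 CPM or more, up to 3 significant members of each list in each direction with at least 1 CPM, preset pathway genes, and the largest differences between fractions. Of the 380 genes so allowed or added, 194 are named. Nearly all genes whose call was lost under an alternative were left unnamed, and some genes are not reported here. A further 23 genes, such as *Cxcl1*, *Foxo4*, *Slc38a2*, *Tpm1* and *Cd68*, could be named after their values were seen. Promoter sequences are those of RefSeq (GRCm38.p6). At these depths the spread between dishes, not counting error, limits the precision of genes with many reads.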

Additional observations from a re-analysis of the deposited data

Results flagged for a closer look

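In 354 groups of 6 dishes, 1 for each treatment and named gene that averaged at least 5 CPM, 18 had a highest or lowest dish set apart from the other 5 by Dixon's test. Chance alone flags about 1 in 20 groups. The dishes set apart most often were control replicate 5 and ethanol replicate 1, 4 times each.

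Among genes that fell, ethanol replicate 1 was the highest ethanol dish for *Cxcl1* (93.7 CPM, next 79.3) and *Cxcl10* (132 CPM, next 112) and the lowest for *Mcm5* (9.74 CPM, next 10.6). Ethanol replicate 2 was the highest for *Tpm1* (999 CPM, next 963), and ethanol replicate 5 the lowest for *Higd1a* (38.6 CPM, next 41.3). Among the control dishes, replicate 5 was the highest for *Psat1* (42.0 CPM, next 39.6) and the lowest for *Hspa8* (1797 CPM, next 1873) and *Usp18* (53.8 CPM, next 61.6). Control replicate 1 was the highest for *Sema7a* (34.7 CPM, next 32.7) and the lowest for *Srsf1* (77.0 CPM, next 81.2), and control replicate 2 the highest for *Uhrf1* (18.1 CPM, next 16.9).

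Among genes that rose, ethanol replicate 5 was the lowest ethanol dish for *Cpxm1* (15.4 CPM, next 17.1). Ethanol replicate 2 was the highest for *Pik3ip1* (285 CPM, next 277) and *Sema4g* (12.4 CPM, next 10.9), and ethanol replicate 1 for *Slc1a2* (148.9 CPM, next 134). Control replicate 5 was the lowest control dish for *Dnm1* (9.04 CPM, next 10.6) and control replicate 2 for *Eif4b* (639 CPM, next 677). For *Ldha*, which did not pass the test, ethanol replicate 3 was the highest ethanol dish (291 CPM, next 276).

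The ethanol effect differed between the fractions, with the dish as a block, for 4 of the genes named. The difference, IP minus input on the log2 scale, was 0.14 for *Col4a5*, 0.56 for *Egr2*, 0.22 for *Nlgn2* and -0.16 for *Hspe1*. With trends of GC content and length also removed, *Egr2* and *Nlgn2* stayed below an adjusted p of 0.05.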

How the results depend on the processing

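The 5233 genes significant in the IP fraction became 5518 with DESeq2, 5361 with trends of GC content and length removed, 5243 with sense-strand counts and 5782 with the replicate block. Leaving out each dish in turn gave 4616 to 5244 genes, 2412 to 2833 up and 2049 to 2525 down. When the null was a change of up to 1.2-fold, 95 genes remained past the threshold, 38 up and 57 down. The share of upregulated genes among those significant was 55.6%, 50.8% with DESeq2, 50.4% with DESeq2's size factors, 48.9% with sense-strand counts and 48.6% with GC content and length removed. Of the 306 significant genes that the naming rule allows or that were added, 253 passed the test in the same direction under all 21 alternatives and 53 did not. All but 1 of those 53 (*Fcrls*) are among the genes left unnamed, so the genes named are the more stable ones. Members called lower in the list of interferon genes rose from 4 to 11, and members called higher from 2 to 8 for immediate early genes, from 5 to 8 for fatty acid genes and from 5 to 9 for NF-kB and chemokine genes, with the replicate block. The replicate numbers of control and ethanol dishes give no pairing in the labels. The correlations of same-numbered dishes ranged from -0.15 to 0.41, not all above 0.1, so the numbers were not taken as pairs.

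The count of genes that differed between fractions was 0 over 18 libraries in edgeR, 102 with the replicate block (the dish), 13 in the same 12 libraries without the block, 4 with DESeq2 and 52 with the dish block and GC content and length removed. Leaving out single dishes was not run for this count. Depth limits genes near 1 CPM, and 6 dishes of unknown culture preparations limit all results.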
